A study of Rattus norvegicus with 39 samples.

Results

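Livers of rats given ANIT were compared with livers of rats given DMN, 2 toxicants of the liver that strike different cells. The comparison holds 10 arrays of 39, the 5 whose labels name ANIT and the 5 whose labels name DMN. ANIT (alpha-naphthylisothiocyanate) was given at 125 mg/kg in corn oil by mouth and DMN (dimethylnitrosamine) at 15 mg/kg in water by mouth. A control group of 9 untreated rats had no vehicle. All rats were 5 to 6 weeks old, the left lateral lobe of the liver was taken 48 h after treatment, and each Affymetrix array held the RNA of a single rat. The strain and sex were not given in the sources used here. Because the vehicles differed, compound and vehicle cannot be told apart, and in whole liver fewer cells of a type and less RNA per cell cannot be told apart either.

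ANIT is joined to glutathione in hepatocytes, exported into bile and released there, where it injures duct epithelium and impairs the flow of bile. DMN is turned by cytochrome P450 2E1 into a methylating agent that alkylates DNA in the pericentral hepatocytes, which die and are replaced by division. Hepatocytes make cholesterol through the mevalonate pathway, turn part of it into bile acids, and secrete bile acids, phospholipid and cholesterol across the canalicular membrane. The transcription factor SREBP2, escorted by SCAP and held back by INSIG, drives the genes of cholesterol synthesis.

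The values are log2 intensities of 14217 genes. Genes that reached an adjusted p under 0.05 in limma, with Benjamini-Hochberg adjustment over all of them, are referred to as called. All differences are ANIT minus DMN unless another pair is named, so that a positive one means more signal in ANIT livers. The hepatocyte genes were strongly expressed in these livers. Albumin (Alb) lay between 14.38 and 14.46 on the ANIT arrays, between 14.32 and 14.47 on the DMN arrays and between 14.40 and 14.47 on the control arrays, close to the top of the intensity scale, where a difference could not be seen. Cyp2e1, the cytochrome that activates DMN, lay between 12.26 and 13.12 on the ANIT arrays, between 11.32 and 13.40 on the DMN arrays and between 12.98 and 13.54 on the control arrays.

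Both groups hold an array that stands apart. On a line through all genes on which the mean of the DMN arrays is 0 and the mean of the ANIT arrays is 1, with the array in question left out and the means taken without the doubted pair, ANIT arrays 1, 2, 4 and 5 lay at 0.743, 0.804, 0.923 and 1.002. The array labelled ANIT 3 lay at 0.123, below all 5 DMN arrays, which lay at 0.254, 0.324, 0.284, 0.261 and 0.421. The array labelled DMN 2 lay among the other DMN arrays on this line, but for some genes its value was in the control range or between that range and the other DMN arrays. Stac3, an adaptor protein gene of the calcium channel in muscle, was at 9.79 on that array, against 5.38 to 6.34 on the other DMN arrays and 10.32 to 11.36 on the control arrays. Lcn2, the acute phase protein lipocalin 2, was at 8.0 on it, against 12.49 to 13.18 on the other DMN arrays and 6.71 to 9.71 on the control arrays. Whether the labels of these 2 arrays are right was not tested, and if they were not, every value with all arrays would mix rats of different treatment. Results are therefore given with all 5 ANIT and 5 DMN arrays and also without the arrays labelled ANIT 3 and DMN 2, which is called the reduced comparison. Both arrays were doubted from the values of this same comparison, so a larger number of calls without them is not independent of that choice. A second feature of the arrays is the signal along the transcript. The 3′ probe set of GAPDH exceeded its 5′ probe set by 2.33 on ANIT 5 and by 6.07 on DMN 3, against 0.12 to 0.89 on the other 8 arrays. For beta-actin the same difference was 2.89 on ANIT 5, 2.80 on DMN 3 and also 2.36 on DMN 5. It was 0.54 to 1.35 on the remaining ANIT and DMN arrays. Of the 55 genes named here that were called with all arrays, 10 were also called without ANIT 5 and DMN 3 (Cyp51, Abcb4, Slc27a5, Nfkb1, Nfkb2, Steap4, Npy, Gpx2, Ppl and Slc13a3), and the other 45 were not (adjusted p between 0.052 and 0.349). That fit kept DMN 5 and the arrays labelled ANIT 3 and DMN 2.

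**Figure D1:**
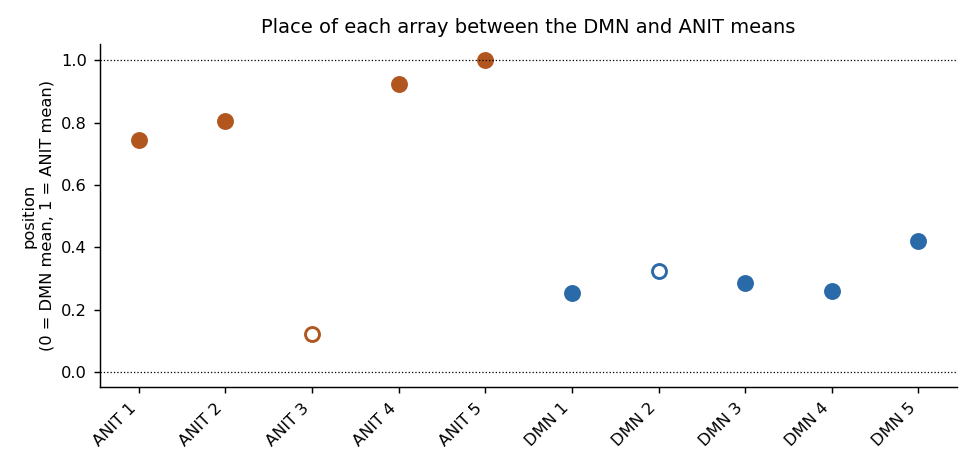
Position of each ANIT and DMN array (x axis) on the line between the DMN mean (0) and the ANIT mean (1) over 14217 genes (y axis, no unit), with the array itself left out of the means. Open circles are the arrays labelled ANIT 3 and DMN 2; ANIT 3 lies at 0.123 and the other 4 ANIT arrays between 0.743 and 1.002.

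With all arrays, 359 genes were called, which is 2.53% of those tested. Of these, 207 (1.46%) were higher and 152 (1.07%) lower in ANIT livers. These calls rest on a spread estimated over all 39 arrays. With only the ANIT and DMN arrays in the fit limma called 0 genes (1897 at an unadjusted p under 0.05), and 587 in the reduced comparison. In the reduced comparison 1014 genes (7.13%) were called, 523 (3.68%) higher and 491 (3.45%) lower. Of the 359 genes, 349 were among them with the same sign. The counts of called members in the gene lists below are to be read beside these shares over all genes. Without the array labelled ANIT 3 alone, 1064 genes were called, against 136, 98, 79 and 65 without ANIT 1, 2, 4 and 5. Without DMN 4 the count was 218, and without each other DMN array it was between 277 and 406. Without ANIT 5 and DMN 3, 27 genes were called at an adjusted p under 0.05 and 1823 at an unadjusted p under 0.05. Without ANIT 3, ANIT 5, DMN 2 and DMN 3, a choice made after seeing the data, 497 were called. The 5 ANIT and 5 DMN arrays did not overlap for 302 genes (2.12%), and the 4 and 4 arrays of the reduced comparison did not overlap for 1837 genes (12.9%). Among the 1014 genes of the reduced comparison, the array labelled ANIT 3 was on the DMN side of the midpoint for 936 and the array labelled DMN 2 on the ANIT side for 442.

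**Figure D2:**
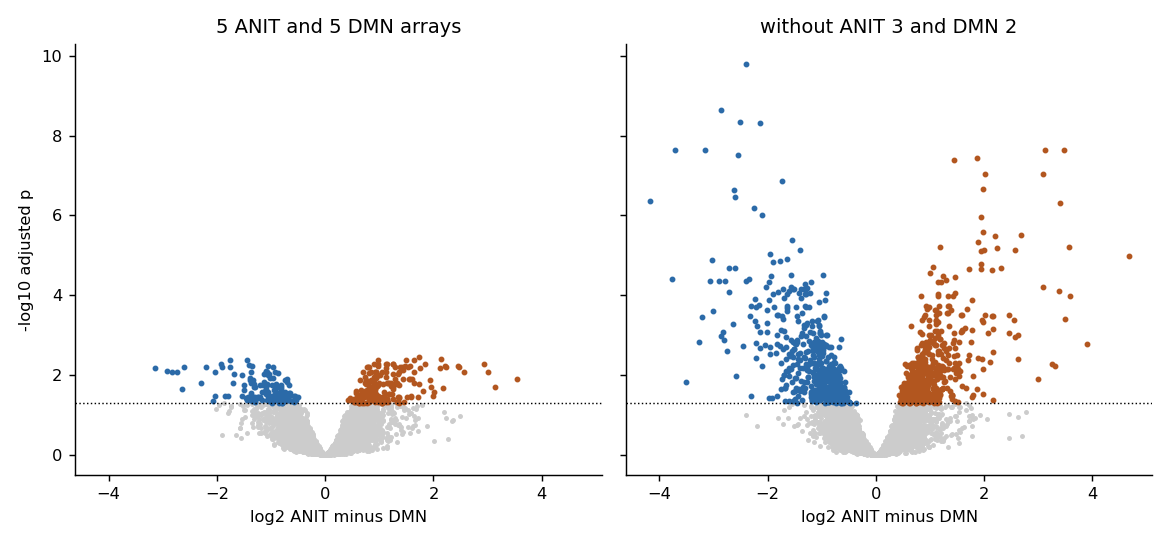
Difference in log2 intensity, ANIT minus DMN (x axis), against −log10 of the adjusted p (y axis) for 14217 genes, with all arrays (left) and without the arrays labelled ANIT 3 and DMN 2 (right). Coloured points passed an adjusted p of 0.05 (dotted line): 207 higher and 152 lower in ANIT on the left, 523 higher and 491 lower on the right.

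Cholesterol synthesis was the gene group with the largest share of members called, 83.3% with all arrays and 94.4% in the reduced comparison. Of its 18 measured genes, 15 were higher and 0 lower in ANIT livers, and in the reduced comparison 17 were higher and 0 lower. The median difference over the 18 genes was 1.57, and 1.98 in the reduced comparison, against −0.04 and −0.01 over all genes. The called genes run along the whole path from acetyl-CoA to cholesterol. Ggps1, which makes geranylgeranyl diphosphate on a side branch, was the member called in neither comparison.

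The mean level of the 18 genes, relative to the control mean, was 1.41, 1.28, 1.27 and 1.70 on ANIT 1, 2, 4 and 5, and −0.71 on the array labelled ANIT 3. It was −0.58, −0.59, −0.57 and −1.23 on DMN 1, 3, 4 and 5, and 0.15 on the array labelled DMN 2. ANIT 1, 2, 4 and 5 were above all DMN arrays and above the control range of −0.20 to 0.20, and the array labelled ANIT 3 was among the DMN arrays. The count of called members rested on the number of typical ANIT arrays in the fit: it was 9, 8, 8 and 5 without ANIT 1, 2, 4 and 5, 17 without ANIT 3, and 12 to 16 without single DMN arrays. Without ANIT 5 and DMN 3 it was 1, Cyp51, and with ANIT 3 and DMN 2 left out as well it was 17. Within the reduced comparison it was 17 whichever further array was left out.

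The promoters of the 2 members with the smallest p with all arrays, Cyp51 and Mvd, are shown because this group had the largest share of members called. Each run is the 250 bases before the start of the gene in RefSeq, build GRCr8, 5′ to 3′ on the strand of the gene, with CCAAT boxes on either strand in capitals.
Cyp51, chr4:30991443-30991692, plus strand: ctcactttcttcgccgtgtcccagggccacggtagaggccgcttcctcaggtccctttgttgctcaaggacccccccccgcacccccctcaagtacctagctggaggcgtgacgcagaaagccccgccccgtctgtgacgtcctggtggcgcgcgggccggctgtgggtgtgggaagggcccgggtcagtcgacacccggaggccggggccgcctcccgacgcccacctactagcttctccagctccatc
Mvd, chr19:67414975-67415224, minus strand: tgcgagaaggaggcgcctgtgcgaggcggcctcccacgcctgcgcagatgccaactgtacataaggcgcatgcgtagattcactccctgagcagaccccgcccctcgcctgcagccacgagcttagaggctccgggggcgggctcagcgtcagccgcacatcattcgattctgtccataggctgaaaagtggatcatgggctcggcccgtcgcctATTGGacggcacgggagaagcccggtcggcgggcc
CCAAT was found on either strand in 12 of the 15 members with a promoter in the table (80.0%) and in 34% of all 33469 promoters of the same length. TCACNCCAC, a spelling of the sterol regulatory element, was found in 0 of the 15 and in 0.974% of all promoters. So rare a spelling would seldom be met in 15 promoters, so the 0 does not show that the element is absent. A match is only a description of these letters.

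Cyp51, which removes a methyl group from lanosterol, was at 12.69, 12.76, 11.01, 12.66 and 13.01 on ANIT arrays 1 to 5, against 10.56, 10.99, 10.24, 10.97 and 8.65 on DMN arrays 1 to 5. The groups did not overlap, though ANIT 3 and DMN 2 nearly met, and the control range of 10.91 to 11.90 reached into both groups. The difference was 2.15 ± 0.36 (SE; adjusted p = 0.00386), and 2.68 ± 0.35 in the reduced comparison (adjusted p = 3.11e-06). Cyp51 differed from controls in both groups, by 1.0 in ANIT (adjusted p = 0.025) and by −1.15 in DMN (adjusted p = 0.013).

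Mvd, the decarboxylase that closes the mevalonate steps, was at 10.42, 10.44, 7.55, 10.71 and 11.76 on the ANIT arrays, against 7.73, 9.05, 7.93, 7.58 and 7.56 on the DMN arrays. The array labelled ANIT 3 had the lowest value of the 10, and the array labelled DMN 2 the highest among the DMN arrays. The difference was 2.21 ± 0.43 (adjusted p = 0.00593), and 3.13 ± 0.32 in the reduced comparison (adjusted p = 2.29e-08). Acat2, which joins acetyl-CoA units at the head of the path, was at 11.13, 11.14, 7.59, 11.02 and 11.95 on the ANIT arrays, against 8.38, 8.82, 8.44, 8.27 and 6.56 on the DMN arrays. Here too ANIT 3 was the exception among the ANIT arrays, and the difference was 2.47 ± 0.50 (adjusted p = 0.00631), and 3.40 ± 0.40 in the reduced comparison (adjusted p = 4.95e-07). Mvk, mevalonate kinase, and Dhcr7, the last reductase of the path, were higher by 1.43 ± 0.29 and 1.53 ± 0.31 (adjusted p = 0.00631 for both), and by 2.02 ± 0.22 and 1.95 ± 0.28 in the reduced comparison (adjusted p = 9.09e-08 and 1.67e-05). The other 2 probe sets of Mvk, both dimmer, were not called, at 0.57 and −0.25 (adjusted p = 0.616 and 0.602 over all probe sets). The calls of these 5 genes remained without any single array, and without ANIT 5 and DMN 3 that of Cyp51 alone remained (adjusted p between 0.0653 and 0.0663 for the others). Those of Pmvk, phosphomevalonate kinase, and Hsd17b7, a sterol ketone reductase, were lost without ANIT 5 (adjusted p = 0.0517 and 0.0605). Those of Idi1, the isomerase of isopentenyl diphosphate, and Sqle, squalene epoxidase, were lost without ANIT 1, 2, 4 or 5, and Sqle also without DMN 4 (adjusted p between 0.0524 and 0.0979). In the reduced comparison Pmvk, Hsd17b7, Idi1 and Sqle were higher by 2.19 ± 0.29, 3.56 ± 0.48, 3.10 ± 0.49 and 2.56 ± 0.47 (adjusted p = 3.28e-06, 6.2e-06, 6.12e-05 and 0.000415).

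Regulators of the path gave few calls. Among 7 measured genes of SREBP regulation and sterol uptake, Scap, the escort of SREBP, was higher by 0.79 ± 0.21 (adjusted p = 0.0351). Its call was lost without any of ANIT 1, 2, 4 or 5 or DMN 2 or 4 (adjusted p between 0.0775 and 0.12), and it was 0.90 ± 0.22 in the reduced comparison (adjusted p = 0.00757). A second, dimmer probe set of Scap was not called, at 0.13 (adjusted p = 0.858 over all probe sets). Srebf2 differed by 0.79 ± 0.26 (adjusted p = 0.0949) and was higher only in the reduced comparison, by 0.96 ± 0.28 (adjusted p = 0.0264), a call lost within it without ANIT 1 or 2 or DMN 4 or 5. Insig1, which retains SREBP in the endoplasmic reticulum, was at 12.69, 12.76, 12.29, 12.27 and 12.93 on the ANIT arrays, against 12.24, 10.14, 11.47, 10.37 and 11.96 on the DMN arrays. The groups did not overlap, but the DMN arrays spread widely and the difference of 1.35 ± 0.53 did not pass (adjusted p = 0.172).

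**Figure D3:**
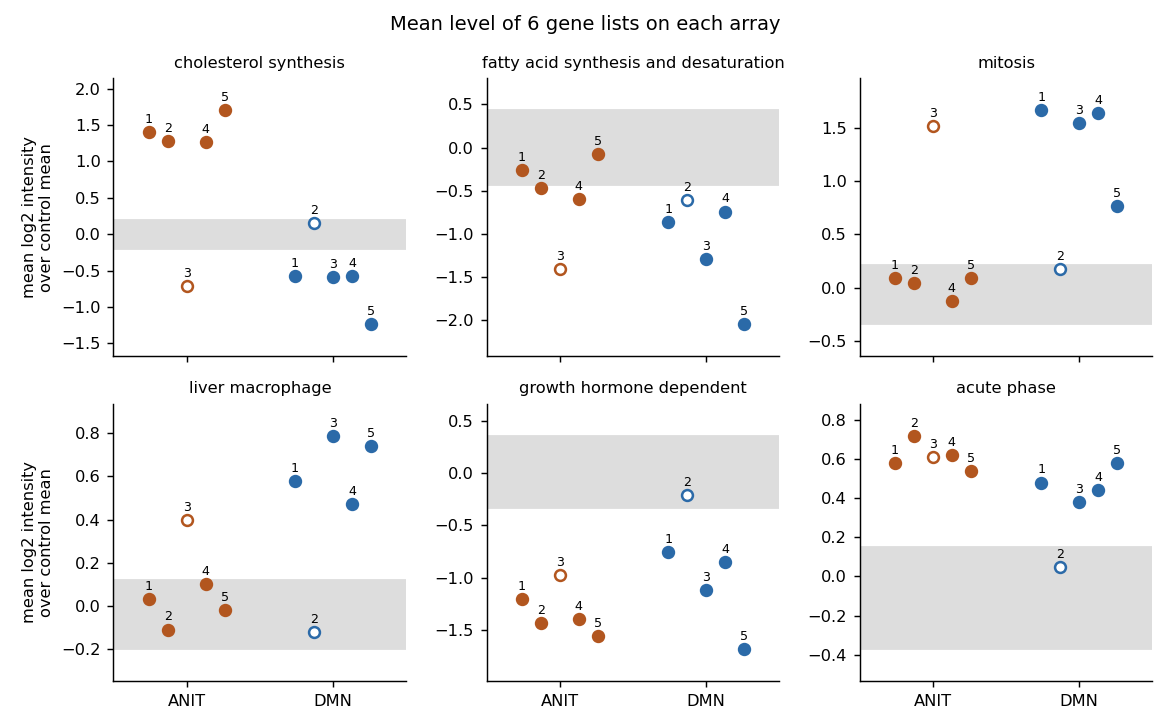
Mean log2 intensity of 6 gene lists on each array, relative to the mean of the 9 control arrays (y axis), for the ANIT and DMN arrays (x axis, numbered by replicate). Grey bands span the 9 control arrays and open circles are the arrays labelled ANIT 3 and DMN 2; in cholesterol synthesis ANIT 1, 2, 4 and 5 lie between 1.27 and 1.70 and ANIT 3 at −0.71.

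Fatty acid synthesis followed in part. Of 17 measured genes, 2 were higher and 0 lower (1 to 6 higher without single arrays), and in the reduced comparison 8 were higher and 1 lower (5 to 8 higher without a further array). Acss2, which makes acetyl-CoA from acetate, was at 11.73, 11.64, 8.22, 11.41 and 12.64 on the ANIT arrays, against 8.69, 9.82, 8.84, 8.95 and 7.04 on the DMN arrays. Within the DMN range lay the array labelled ANIT 3, and the difference was 2.46 ± 0.48 (adjusted p = 0.0058) and 3.48 ± 0.35 in the reduced comparison (adjusted p = 2.29e-08). Against controls Acss2 was lower in DMN livers, by −1.97 (adjusted p = 0.0017), while ANIT livers differed by 0.49 (adjusted p = 0.44). Fasn, fatty acid synthase, was higher by 1.52 ± 0.41 (adjusted p = 0.0351), a call lost without ANIT 1, 2, 4 or 5 or DMN 3 or 5 (adjusted p between 0.0692 and 0.17), and by 2.15 ± 0.39 in the reduced comparison (adjusted p = 0.000331). A second probe set of Fasn was not called, at 1.79 (adjusted p = 0.0785 over all probe sets). Acly, which makes cytosolic acetyl-CoA from citrate, Elovl6, a fatty acid elongase, and Fads1, a desaturase, differed in the reduced comparison alone, by 2.17 ± 0.39, 2.46 ± 0.48 and 1.89 ± 0.42 (adjusted p = 0.000329, 0.000877 and 0.00364). Scd, the stearoyl-CoA desaturase, gave no call between the compounds (−0.43 ± 0.37, adjusted p = 0.626) and was below controls in both, by −2.44 in ANIT (adjusted p = 4.6e-06) and −2.0 in DMN (adjusted p = 9.3e-05). Pklr, liver pyruvate kinase, was likewise below controls in both, by −3.22 and −2.0 (adjusted p = 7.9e-07 and 0.00054), and differed by −1.22 ± 0.43 between the compounds (adjusted p = 0.122).

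Among the transporters of bile, single members differed. Of 10 canalicular exporters 1 was higher and 0 lower in both comparisons, of 6 basolateral efflux pumps 1 and 0, and of 8 uptake carriers and their partners 1 and 0. Over all genes 1.46% were higher and 1.07% lower, and 3.68% and 3.45% in the reduced comparison. A single called member says little about lists this short. Abcb4, the flippase that brings phospholipid into bile, was at 11.52, 11.47, 10.22, 11.97 and 11.37 on the ANIT arrays, against 10.03, 9.06, 9.71, 9.39 and 9.09 on the DMN arrays. The groups did not overlap, ANIT 3 being the lowest ANIT array, and the control arrays ranged from 8.66 to 10.01. The difference was 1.85 ± 0.35 (adjusted p = 0.00513), and 2.03 ± 0.37 in the reduced comparison (adjusted p = 0.000317). Slc27a5, which activates bile acids for conjugation, was at 12.95, 12.79, 12.08, 13.01 and 12.82 on the ANIT arrays, against 11.77, 11.80, 11.71, 11.87 and 11.60 on the DMN arrays. These groups did not overlap either, and the difference was 0.98 ± 0.17 (adjusted p = 0.00424), and 1.15 ± 0.18 in the reduced comparison (adjusted p = 4.77e-05). The calls of Abcb4 and Slc27a5 remained without any single array and without ANIT 5 and DMN 3 (adjusted p = 0.0383 for both).

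Abcc3, the basolateral pump that returns conjugated bile acids to blood, was at 10.68, 10.10, 7.15, 10.65 and 11.21 on the ANIT arrays, against 7.11, 5.03, 8.38, 6.64 and 4.89 on the DMN arrays. All ANIT arrays lay above the DMN range except the array labelled ANIT 3, which lay inside it. The difference of 3.55 ± 0.79 (adjusted p = 0.0121) was the largest of all higher genes with all arrays. Its call was lost without ANIT 4 or ANIT 5 (adjusted p = 0.0523 and 0.0617), and in the reduced comparison the difference was 3.90 ± 0.81 (adjusted p = 0.00166). The bile salt export pump Abcb11 lay between 11.29 and 11.65 on the ANIT arrays, against 10.56 to 11.43 on the DMN arrays, a difference of 0.36 ± 0.18 (adjusted p = 0.319). The canalicular conjugate pump Abcc2 and the bile acid uptake carrier Slc10a1 differed by −0.07 ± 0.23 and −0.40 ± 0.23 (adjusted p = 0.927 and 0.396). Slc10a1 was below controls in both groups, by −1.04 in ANIT (adjusted p = 0.00044) and −0.64 in DMN (adjusted p = 0.037).

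Of 13 genes of bile acid synthesis and conjugation 0 were called by limma with all arrays (3 at an unadjusted p under 0.05), and 3 were higher in the reduced comparison (1 to 3 without a further array). Cyp7a1, which catalyses the rate-limiting step, was at 10.85, 10.74, 8.52, 10.74 and 11.68 on the ANIT arrays, against 9.66, 11.07, 9.33, 7.47 and 5.57 on the DMN arrays. The groups overlapped, and the control arrays spread from 7.61 to 12.12. The difference was 1.89 ± 0.77 (adjusted p = 0.19) and 3.0 ± 0.78 in the reduced comparison (adjusted p = 0.0126), a call lost within it without ANIT 5 or DMN 5. Hsd3b7, which acts after Cyp7a1, was higher in the reduced comparison by 1.12 ± 0.21 (adjusted p = 0.000511). Of 9 bile acid receptors and signals, Fgfr4, the receptor for the gut hormone that restrains bile acid synthesis, was higher by 0.59 ± 0.16 (adjusted p = 0.0351), with no overlap between the groups. Its call was lost without ANIT 1, 2, 4 or 5 or DMN 1 or 4 (adjusted p between 0.063 and 0.124), and in the reduced comparison it was higher by 0.73 ± 0.17 (adjusted p = 0.00532).

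**Figure D4:**
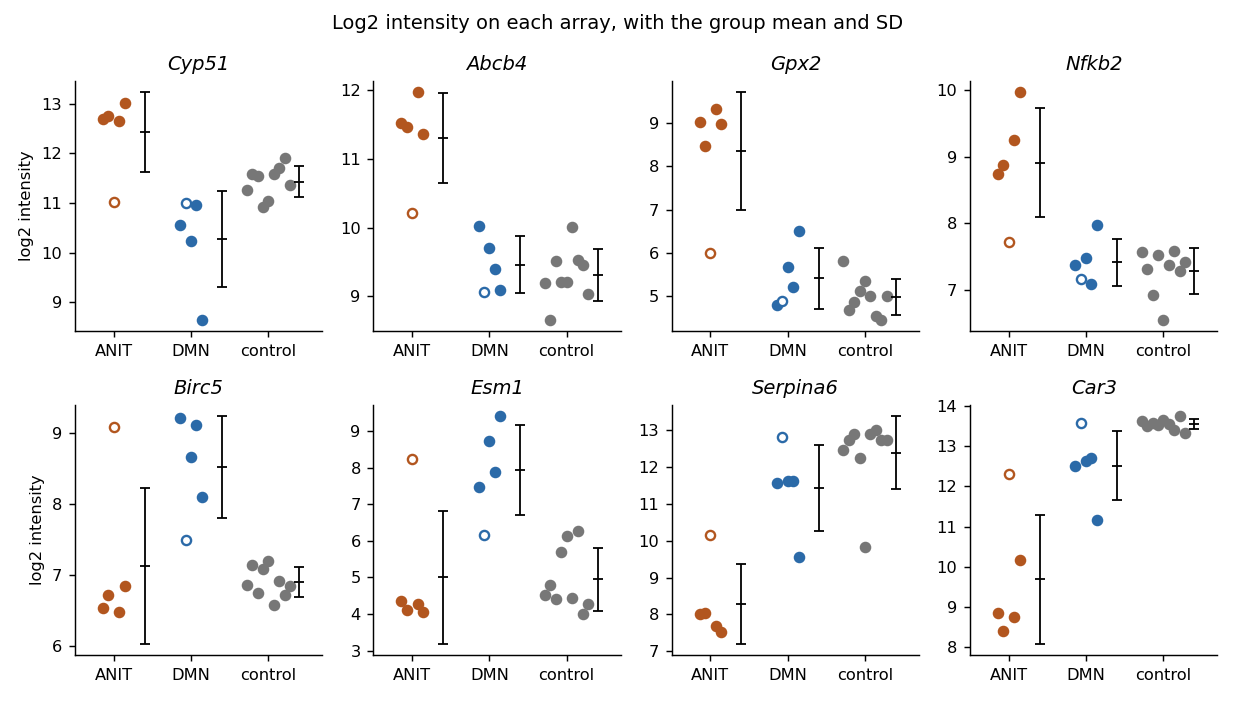
Log2 intensity of 8 genes (y axis) on each ANIT, DMN and control array (x axis), with the group mean and SD beside the points. Open circles are the arrays labelled ANIT 3 and DMN 2; in Abcb4 the lowest ANIT array is at 10.22 and the highest DMN array at 10.03.

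The genes of cell division ran the other way. Of 28 mitosis genes, 2 were lower and 0 higher in ANIT livers, and in the reduced comparison 23 were lower and 0 higher. The median difference was −0.75, and −1.27 in the reduced comparison. The mean level of the list was 0.09, 0.04, −0.13 and 0.09 on ANIT 1, 2, 4 and 5, inside the control range of −0.34 to 0.21, and 1.51 on the array labelled ANIT 3. It was 1.66, 1.54, 1.64 and 0.76 on DMN 1, 3, 4 and 5, and 0.17 on the array labelled DMN 2. The count of lower members was 14 without ANIT 3 and 0 without each other ANIT array. It was 1, 10, 1, 1 and 5 without DMN 1 to 5. It was 19 to 23 when a further array was left out of the reduced comparison, and 0 without ANIT 5 and DMN 3. With ANIT 3 and DMN 2 left out as well as ANIT 5 and DMN 3 it was 18. Of 18 cyclins, kinases and their inhibitors, 1 was higher and 2 lower (0 to 7 lower without single arrays), and in the reduced comparison 1 and 8. Of 24 DNA replication genes 0 were called by limma (6 at an unadjusted p under 0.05), and 8 were lower in the reduced comparison (4 to 7 without a further array). Against controls, 14 of these 24 were higher in DMN livers, where 5.87% of all genes were called higher, and 12 were higher in ANIT livers, where 8.19% were.

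The promoters of the 2 mitosis genes with the smallest p with all arrays are shown since this list had the most members lower in the reduced comparison. They are given as above, with CCAAT on either strand and TTTGAA on either strand, a spelling of the cell cycle homology region, in capitals.
Birc5, chr10:103571896-103572145, plus strand: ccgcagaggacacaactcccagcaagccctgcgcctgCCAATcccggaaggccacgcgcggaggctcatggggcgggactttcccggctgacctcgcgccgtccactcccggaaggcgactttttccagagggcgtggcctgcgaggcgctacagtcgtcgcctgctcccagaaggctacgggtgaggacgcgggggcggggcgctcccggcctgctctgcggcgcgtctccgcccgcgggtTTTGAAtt
Aurka, chr3:181560770-181561019, minus strand: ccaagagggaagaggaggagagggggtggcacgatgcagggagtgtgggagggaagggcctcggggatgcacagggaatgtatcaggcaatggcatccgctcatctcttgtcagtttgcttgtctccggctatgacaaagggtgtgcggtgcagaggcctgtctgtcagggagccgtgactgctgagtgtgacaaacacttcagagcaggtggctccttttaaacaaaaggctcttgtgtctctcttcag
TTTGAA was found in 11 of the 25 members with a promoter in the table (44.0%) and in 16.2% of all promoters, and CCAAT in 18 of 25 (72.0%) and in 34%.

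Birc5, the survivin subunit of the chromosomal passenger complex, was at 6.53, 6.72, 9.08, 6.47 and 6.84 on the ANIT arrays, against 9.21, 7.49, 8.66, 9.11 and 8.10 on the DMN arrays. Again the array labelled ANIT 3 was in the range of the DMN arrays, and the other 4 were in or just under the control range of 6.57 to 7.19. The difference was −1.39 ± 0.31 (adjusted p = 0.0116), and −2.13 ± 0.20 in the reduced comparison (adjusted p = 4.76e-09). Aurka, the spindle pole kinase, was lower by −0.87 ± 0.23 (adjusted p = 0.0327) and −1.30 ± 0.20 (adjusted p = 5.24e-05). Ccnb2, a mitotic cyclin, was at 6.36, 6.32, 10.35, 5.92 and 5.78 on the ANIT arrays, against 10.14, 8.55, 10.22, 10.53 and 8.54 on the DMN arrays. ANIT 3 again had a DMN-like value, and the difference was −2.65 ± 0.65 (adjusted p = 0.0221) and −3.76 ± 0.58 in the reduced comparison (adjusted p = 3.86e-05). The calls of these 3 genes with all arrays were lost without ANIT 1, 2, 4 or 5, Aurka's also without DMN 1, 3 or 4 and Ccnb2's without DMN 4 (adjusted p between 0.0508 and 0.134). They remained when any further array was left out of the reduced comparison.

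Kif20a, a kinesin of cell separation, Cdk1, the mitotic kinase, and Top2a, which untangles DNA, were called in the reduced comparison alone, at −3.03 ± 0.43, −2.32 ± 0.42 and −1.32 ± 0.21 (adjusted p = 1.3e-05, 0.000331 and 6.82e-05). Tyms, thymidylate synthase, and Rfc4, a clamp loader subunit, stood likewise at −1.64 ± 0.29 and −1.34 ± 0.28 (adjusted p = 0.000253 and 0.00166). Ccnd1, the cyclin of entry into the cycle, ran against the list. It was at 11.10, 11.13, 10.05, 11.07 and 11.03 on the ANIT arrays, against 10.35, 9.42, 10.21, 9.31 and 9.52 on the DMN arrays. All 10 arrays were above the control range of 8.20 to 9.22, and 4 ANIT arrays were above every DMN array. The difference was 1.12 ± 0.32 (adjusted p = 0.0468), a call lost without ANIT 1, 2, 4 or 5 or DMN 2, 4 or 5 (adjusted p between 0.0934 and 0.138), and 1.24 ± 0.34 in the reduced comparison (adjusted p = 0.0203), a call lost within it without DMN 4 or 5 (adjusted p = 0.0631 and 0.084). Its other probe sets were not called, at 2.64 and 2.0 (adjusted p = 0.0863 and 0.127 over all probe sets).

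Genes of the response to DNA damage were called in the reduced comparison alone. Of 23 p53 targets 4 were lower in it and 0 higher (2 to 5 lower without a further array), and of 18 DNA repair genes 3 were lower and 1 higher (1 to 3 lower). These are 17.4% and 22.2% of the lists, against 7.13% of all genes. With all arrays limma called 0 of either list, with 5 p53 targets and 4 repair genes at an unadjusted p under 0.05. Mdm2, the ligase that degrades p53, was at 8.33, 8.42, 10.09, 8.64 and 8.90 on the ANIT arrays, against 9.57, 8.51, 10.32, 10.53 and 9.18 on the DMN arrays. With the arrays labelled ANIT 3 and DMN 2 set aside the groups did not overlap. The difference was −0.75 ± 0.29 (adjusted p = 0.167) and −1.33 ± 0.25 in the reduced comparison (adjusted p = 0.000646). Cdkn1a, the p21 inhibitor of cyclin-dependent kinases, and Plk2, a kinase induced by p53, stood at −1.54 ± 0.44 and −0.91 ± 0.18 in that comparison (adjusted p = 0.0258 and 0.000981). The call of Cdkn1a was lost within it without ANIT 1, 4 or 5 or DMN 3. Mgmt, which removes methyl groups from guanine in DNA, was at 9.43, 9.99, 10.78, 9.5 and 9.42 on the ANIT arrays, against 10.13, 9.94, 10.52, 10.60 and 10.69 on the DMN arrays. All 10 arrays exceeded the control range of 8.36 to 8.90. Mgmt was higher than in controls in both groups, by 1.16 in ANIT (adjusted p = 0.00054) and 1.71 in DMN (adjusted p = 6.5e-06). The difference between the compounds was −0.55 ± 0.26 (adjusted p = 0.278) and −0.90 ± 0.26 in the reduced comparison (adjusted p = 0.0303), a call lost within it without ANIT 1, 4 or 5 or DMN 3, 4 or 5.

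Nfkb1 and Nfkb2, which encode the precursor subunits of NF-kappaB, were higher in ANIT livers. Of 21 inflammatory signals 3 were higher and 1 lower (2 to 5 higher without single arrays), and in the reduced comparison 3 and 2. Nfkb2, the p100 subunit of NF-kappaB, was at 8.74, 8.87, 7.72, 9.25 and 9.97 on the ANIT arrays, against 7.37, 7.16, 7.48, 7.09 and 7.97 on the DMN arrays. Only ANIT 3 fell among the DMN arrays, and the control arrays lay between 6.55 and 7.59. The difference was 1.5 ± 0.26 (adjusted p = 0.00424), and 1.73 ± 0.25 in the reduced comparison (adjusted p = 2.13e-05). Nfkb1, the p105 subunit, was higher by 1.14 ± 0.21 both with all arrays and in the reduced comparison (adjusted p = 0.00513 and 0.000462). The calls of both genes remained without any single array. Tnfaip3, an inhibitor of NF-kappaB, was higher by 1.37 ± 0.39 with all arrays (adjusted p = 0.0499) but not in the reduced comparison (1.28 ± 0.43, adjusted p = 0.0638), and its call was lost without any single array other than ANIT 3 or DMN 5. Il18, the cytokine interleukin 18, was lower by −0.70 ± 0.19 (adjusted p = 0.0377), and this was lost without ANIT 1, 2, 4 or 5 or DMN 3 or 5 (adjusted p between 0.0518 and 0.123). Its difference was −0.87 ± 0.21 without the doubted arrays (adjusted p = 0.00576).

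Of 26 acute phase genes 1 was called (3.8%, against 2.53% of all genes), the metalloreductase Steap4. It was at 11.08, 11.67, 10.81, 11.01 and 11.21 on the ANIT arrays, against 9.99, 10.003, 10.48, 10.21 and 9.44 on the DMN arrays. The groups did not overlap, and the difference was 1.13 ± 0.24 (adjusted p = 0.00809), and 1.21 ± 0.27 in the reduced comparison (adjusted p = 0.00293). The other acute phase genes gave no call between the compounds. Lcn2 lay between 12.65 and 13.34 on the ANIT arrays and between 12.49 and 13.18 on the DMN arrays other than DMN 2, with a difference of 1.06 ± 1.02 (adjusted p = 0.668) and 0.16 ± 1.05 in the reduced comparison (adjusted p = 0.961). A2m, the rat acute phase protein alpha-2-macroglobulin, differed by 0.92 ± 0.77 (adjusted p = 0.61). Both were above controls in both groups, Lcn2 by 4.92 in ANIT and 3.86 in DMN (adjusted p = 0.00021 and 0.0039) and A2m by 3.35 and 2.42 (adjusted p = 0.00074 and 0.017).

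Markers of blood and immune cells were lower in ANIT livers where they were called. Of 22 liver macrophage genes 3 were lower and 0 higher (1 to 6 lower without single arrays), and 7 and 0 in the reduced comparison. Adam8, a leukocyte metalloprotease, was at 5.58, 6.07, 10.35, 6.07 and 6.99 on the ANIT arrays, against 9.92, 8.51, 10.23, 9.95 and 9.44 on the DMN arrays. The ANIT arrays other than ANIT 3 were near the control range of 5.10 to 6.77, and the array labelled ANIT 3 had the highest value of the 10. The difference was −2.60 ± 0.52 (adjusted p = 0.00631) and −3.71 ± 0.38 in the reduced comparison (adjusted p = 2.29e-08), and the call remained without any single array but not without ANIT 5 and DMN 3 (adjusted p = 0.0653). A second probe set of Adam8 differed by −0.02 (adjusted p = 0.988 over all probe sets). Aif1 and Mpeg1, both expressed by macrophages, were lower by −1.01 ± 0.27 and −0.72 ± 0.20 (adjusted p = 0.0351 and 0.0422), calls lost without ANIT 1, 2, 4 or 5 and some DMN arrays (adjusted p between 0.0568 and 0.161), and by −1.43 ± 0.27 and −1.0 ± 0.21 in the reduced comparison (adjusted p = 0.000448 and 0.00149). A second probe set of Aif1 differed by 0.26, with the other sign (adjusted p = 0.699 over all probe sets). That of Mpeg1 was not called either, at −0.84 (adjusted p = 0.739 over all probe sets). The resident macrophage marker Cd163 differed by −0.23 ± 0.31 (adjusted p = 0.778). Gpnmb and Lyz2, of phagocytes, were lower in the reduced comparison alone, by −1.96 ± 0.43 and −1.17 ± 0.25 (adjusted p = 0.00296 and 0.00249).

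Of 25 chemokine and neutrophil genes 0 were called by limma with all arrays (6 at an unadjusted p under 0.05). In the reduced comparison 3 were lower (12.0%, against 3.45% of all genes). S100a9, a calcium-binding protein of neutrophils, was at 7.73, 8.21, 10.89, 8.45 and 8.54 on the ANIT arrays, against 10.48, 7.05, 11.28, 10.65 and 12.11 on the DMN arrays. The 2 doubted arrays each lay on the side of the other group, and the difference was −1.55 ± 0.60 (adjusted p = 0.158) and −2.89 ± 0.45 in the reduced comparison (adjusted p = 4.32e-05). Tubb1, the beta tubulin of platelets, was at 6.05, 5.55, 8.04, 5.52 and 6.28 on the ANIT arrays, against 8.57, 6.13, 9.04, 7.80 and 9.41 on the DMN arrays. The ANIT arrays other than ANIT 3 were within the control range of 5.52 to 6.45, and so was the array labelled DMN 2. The difference was −1.90 ± 0.38 (adjusted p = 0.00631), and −2.86 ± 0.25 in the reduced comparison (adjusted p = 2.24e-09). Pf4, platelet factor 4, was lower by −2.03 ± 0.53 (adjusted p = 0.0327), a call lost without any single array other than ANIT 3 or DMN 2, and by −3.05 ± 0.47 in the reduced comparison (adjusted p = 4.26e-05). Npy, the signalling peptide neuropeptide Y, was lower by −1.92 ± 0.35 (adjusted p = 0.00513), and this call remained without any single array and without ANIT 5 and DMN 3 (adjusted p = 0.0383); in the reduced comparison it was −2.63 ± 0.30 (adjusted p = 2.32e-07). Of 8 erythroid genes 0 were called by limma with all arrays (1 at an unadjusted p under 0.05) and 3 were lower in the reduced comparison, among them the globin Hbb at −1.11 ± 0.27 (adjusted p = 0.00715). The part of blood content in these differences was not tested.

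Esm1, Apln and Fabp4 are in none of the lists and are described for the size of their difference. Esm1, a proteoglycan of activated endothelium, was at 4.34, 4.11, 8.24, 4.28 and 4.05 on the ANIT arrays, against 7.48, 6.16, 8.73, 7.87 and 9.41 on the DMN arrays. The ANIT arrays other than ANIT 3 were under 4.55, the level taken as background, and the control arrays lay between 3.99 and 6.27. With all arrays the fitted difference was −2.93 ± 0.61 (adjusted p = 0.00764), which rests on 4 ANIT values under background and is no exact size. In the reduced comparison, where the ANIT mean is near background, Esm1 was at least 14.2-fold lower (adjusted p = 4.36e-07). Apln, the endothelial peptide apelin, was lower by −2.20 ± 0.44 (adjusted p = 0.00631), and Fabp4, a fatty acid carrier of endothelium and adipocytes, by −2.29 ± 0.53 (adjusted p = 0.0152). The differences were −3.16 ± 0.32 and −2.80 ± 0.57 without the doubted arrays (adjusted p = 2.29e-08 and 0.00129). A second, dimmer probe set of Apln was not called, at −0.27 (adjusted p = 0.639 over all probe sets). The calls of Esm1 and Apln remained without any single array but not without ANIT 5 and DMN 3 (adjusted p = 0.0924 and 0.107), and that of Fabp4 was lost without ANIT 2, ANIT 5 or DMN 5 (adjusted p between 0.0504 and 0.0886). Of 21 endothelial markers 0 were called by limma with all arrays (6 at an unadjusted p under 0.05) and 4 were higher in the reduced comparison. One of them was Stab2, a scavenger receptor of sinusoidal endothelium, at 9.87, 9.20, 7.32, 9.38 and 9.06 on the ANIT arrays, against 7.93, 9.36, 7.21, 7.27 and 7.34 on the DMN arrays. Its difference was 1.14 ± 0.34 (adjusted p = 0.0543) and 1.94 ± 0.24 in the reduced comparison (adjusted p = 1.08e-06).

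Of 33 genes of stellate cells and matrix 1 was higher and 0 lower, and 3 and 3 in the reduced comparison (2 to 5 higher and 1 to 4 lower without a further array). These are 3.0% and 18.2% of the list, against 2.53% and 7.13% of all genes. Pdgfra, the receptor for platelet-derived growth factor on mesenchymal cells, was higher by 1.06 ± 0.30 (adjusted p = 0.0477), a call lost without any single array other than ANIT 3, and by 1.42 ± 0.29 in the reduced comparison (adjusted p = 0.00151). The collagen genes Col1a1 and Col3a1 were higher in the reduced comparison alone, by 1.56 ± 0.38 and 0.99 ± 0.22 (adjusted p = 0.00778 and 0.00293), and the call of Col1a1 was lost within it without ANIT 5.

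Among genes that depend on growth hormone, 3 of 16 were lower and 0 higher (1 to 3 lower without single arrays), and 3 and 1 in the reduced comparison. The 3 were Serpina6, Cyp3a2 and Serpina3c, a serine protease inhibitor, which was lower by −1.12 ± 0.28 (adjusted p = 0.026) and by −1.30 ± 0.26 in the reduced comparison (adjusted p = 0.00105); its first call was lost without ANIT 1, 2, 4 or 5 or DMN 2 or 4 (adjusted p between 0.0545 and 0.0935). Serpina6, the corticosteroid-binding globulin, was at 8.02, 8.04, 10.16, 7.68 and 7.53 on the ANIT arrays, against 11.55, 12.80, 11.60, 11.61 and 9.57 on the DMN arrays. The lowest DMN array lay below ANIT 3 and above the other ANIT arrays. The difference was −3.14 ± 0.64 (adjusted p = 0.00668) and −3.27 ± 0.67 in the reduced comparison (adjusted p = 0.00147). Against controls Serpina6 was lower by −4.09 in ANIT (adjusted p = 6e-06), and it differed by −0.95 in DMN (adjusted p = 0.33). Car3, carbonic anhydrase 3, which was counted in the pericentral list, was at 8.85, 8.39, 12.30, 8.75 and 10.18 on the ANIT arrays, against 12.51, 13.58, 12.62, 12.72 and 11.17 on the DMN arrays and 13.33 to 13.75 on the control arrays. Only ANIT 3 overlapped the DMN arrays, and the difference was −2.83 ± 0.60 (adjusted p = 0.00839), and −3.21 ± 0.58 in the reduced comparison (adjusted p = 0.000341). A second probe set of Car3 was not called, at −2.43 (adjusted p = 0.413 over all probe sets). The calls of Serpina6 and Car3 remained without any single array but not without ANIT 5 and DMN 3 (adjusted p = 0.0663 and 0.0601). Cyp3a2, a steroid-metabolising cytochrome P450, was lower by −1.36 ± 0.35 (adjusted p = 0.0318), lost without ANIT 2, 4 or 5 or DMN 1, 2, 3 or 4 (adjusted p between 0.0551 and 0.13), and by −1.69 ± 0.33 in the reduced comparison (adjusted p = 0.000782). Cyp2c11, a cytochrome P450 typical of male rats, gave no call between the compounds (−0.69 ± 0.42, adjusted p = 0.432) and was below controls in both, by −2.70 in ANIT and −2.0 in DMN (adjusted p = 5.9e-06 and 0.00038).

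Genes of detoxication divided by member. Gpx2, the glutathione peroxidase best known from the gut and a target of NRF2, was at 9.02, 8.47, 6.00, 9.31 and 8.97 on the ANIT arrays, against 4.80, 4.90, 5.68, 5.22 and 6.52 on the DMN arrays. ANIT 3 was among the DMN arrays and the other ANIT arrays were above them and above the control range of 4.46 to 5.82, and the difference was 2.93 ± 0.55 (adjusted p = 0.00515), and 3.39 ± 0.55 in the reduced comparison (adjusted p = 7.63e-05). Of 23 NRF2 targets 2 were higher and 0 lower, Gpx2 and Abcc3, and in the reduced comparison 4 were higher and 1 lower (2 to 4 higher without a further array). These are 8.7% and 21.7% of the list, against 2.53% and 7.13% of all genes. Hmox1, heme oxygenase 1, differed by 0.23 ± 0.47 (adjusted p = 0.869) and was above controls in both groups, by 1.84 in ANIT and 1.61 in DMN (adjusted p = 0.0022 and 0.0093). Gstp3, a glutathione S-transferase of the pi class, was lower by −2.74 ± 0.58 (adjusted p = 0.00839), a call lost without ANIT 4 (adjusted p = 0.0517), and by −2.85 ± 0.57 in the reduced comparison (adjusted p = 0.00102). Gstp3 belongs to a family of similar sequences, so probes may not keep its members apart.

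Cyp1a1, which the aryl hydrocarbon receptor switches on, was at 11.76, 10.03, 5.48, 9.996 and 12.19 on the ANIT arrays, against 7.55, 6.00, 6.80, 8.75 and 7.88 on the DMN arrays. The array labelled ANIT 3 had the lowest value of the 10, and the 4 other ANIT arrays exceeded all DMN arrays and the control range of 5.69 to 8.30. The difference was 2.50 ± 0.85 (adjusted p = 0.105) and 3.25 ± 0.76 in the reduced comparison (adjusted p = 0.00524). Of 9 genes of the CYP1 family and this receptor 3 were higher in that comparison, a count of 1 without a further ANIT 1, 4 or 5 or DMN 1 or 5 and of 2 without DMN 3 or 4, and limma called 0 with all arrays (4 at an unadjusted p under 0.05). Akr1c3, an aldo-keto reductase, was at 6.46, 5.45, 6.77, 6.76 and 5.10 on the ANIT arrays, against 7.30, 9.32, 7.90, 7.67 and 7.35 on the DMN arrays. The groups did not overlap, and both lay below the 8.61 to 10.12 of the control arrays except for DMN 2. The difference was −1.80 ± 0.47 (adjusted p = 0.033), lost without ANIT 1, 2, 4 or 5 or DMN 2, 3 or 4 (adjusted p between 0.0504 and 0.145). Its difference was −1.61 ± 0.50 without the doubted arrays (adjusted p = 0.0437), a call lost when leaving out also ANIT 2 or 5 or any DMN array.

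The markers of bile duct cells gave few calls. Of 15 bile duct genes 1 was higher and 1 lower, and 2 and 2 in the reduced comparison. Krt19, the keratin that defines bile duct cells, was at 6.18, 6.18, 6.83, 6.23 and 6.02 on the ANIT arrays, against 5.98, 7.32, 5.71, 6.45 and 6.60 on the DMN arrays. The groups overlapped, and the difference was −0.12 ± 0.28 (adjusted p = 0.884). Krt7, another duct keratin, differed by 0.20 ± 0.20 (adjusted p = 0.679). Cldn7, a tight junction claudin, was higher by 1.43 ± 0.32 (adjusted p = 0.0121) and Spp1, osteopontin, lower by −1.01 ± 0.28 (adjusted p = 0.0404). The call of Cldn7 was lost without ANIT 1, 4 or 5 and that of Spp1 without ANIT 1, 2, 4 or 5 or DMN 1 or 5 (adjusted p between 0.0539 and 0.149). The differences were 1.78 ± 0.30 and −1.27 ± 0.30 without the doubted arrays (adjusted p = 0.000132 and 0.00634), and the call of Spp1 was lost when leaving out also DMN 5 (adjusted p = 0.0533). Epcam, an adhesion molecule of duct and progenitor cells, was higher in the reduced comparison by 1.59 ± 0.31 (adjusted p = 0.000731).

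Krt8 and Krt18, the keratin pair of hepatocytes, were both higher. Krt8 was at 13.40, 13.36, 12.17, 13.37 and 13.14 on the ANIT arrays, against 11.87, 11.46, 12.10, 11.95 and 12.54 on the DMN arrays. Only ANIT 3 overlapped the DMN arrays, and every ANIT array exceeded the control range of 10.91 to 11.53. The difference was 1.10 ± 0.28 for Krt8 (adjusted p = 0.0301) and 0.90 ± 0.25 for Krt18 (adjusted p = 0.0425), and 1.20 ± 0.29 and 1.02 ± 0.27 in the reduced comparison (adjusted p = 0.00751 and 0.0129), where the call of Krt18 was lost without DMN 1 (adjusted p = 0.0652). Both calls were lost without ANIT 1, 2, 4 or 5 or DMN 1, 2 or 4, and that of Krt18 also without DMN 3 (adjusted p between 0.0521 and 0.137). Cdh1, the adhesion protein E-cadherin, was at 11.91, 11.95, 11.23, 12.15 and 12.08 on the ANIT arrays, against 11.06, 10.10, 11.15, 10.90 and 10.36 on the DMN arrays. The groups did not overlap, though ANIT 3 and DMN 3 lay close, and the difference was 1.15 ± 0.27 (adjusted p = 0.0158), lost without ANIT 2, 4 or 5 (adjusted p between 0.0508 and 0.0668), and 1.15 ± 0.28 in the reduced comparison (adjusted p = 0.00799). A second, very dim probe set of Cdh1, with a mean of 3.55, differed by −0.01 (adjusted p = 0.982 over all probe sets). Cxadr, a junction protein that serves as the coxsackievirus and adenovirus receptor, was at 7.93, 8.0, 4.52, 8.46 and 9.04 on the ANIT arrays, against 4.19, 3.87, 5.31, 5.04 and 4.55 on the DMN arrays. ANIT 3 and the DMN arrays lay near the background level of 4.55, and the other ANIT arrays well above it. The difference was 3.0 ± 0.63 (adjusted p = 0.00839), lost without ANIT 5 (adjusted p = 0.0543), and 3.58 ± 0.59 in the reduced comparison (adjusted p = 0.000105); with DMN values near background neither is an exact size. Ppl, the desmosome protein periplakin, had no overlap between the groups and was higher by 2.01 ± 0.50 (adjusted p = 0.0258), lost without ANIT 1, 2 or 4 or DMN 2 or 5 (adjusted p between 0.061 and 0.0864). Its difference was 1.78 ± 0.54 without the doubted arrays (adjusted p = 0.0354), a call lost when leaving out also ANIT 1, 2 or 4 or DMN 1, 4 or 5.

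Zonal genes of hepatocytes gave calls in both directions. Of 22 pericentral genes 1 was higher and 1 lower, and 5 and 2 in the reduced comparison (1 to 4 higher without a further array). Of 19 periportal genes 1 was higher and 3 lower (0 to 5 lower without single arrays), and 1 and 4 in the reduced comparison (2 to 4 lower without a further array). Slc13a3, a carrier of dicarboxylates, was at 9.49, 9.70, 6.92, 9.83 and 9.60 on the ANIT arrays, against 5.87, 8.64, 7.73, 5.97 and 6.74 on the DMN arrays. ANIT 3 and DMN 2 lay on the side of the other group, and the ANIT arrays other than ANIT 3 were in the control range of 8.44 to 9.75 or just above it. The difference was 2.12 ± 0.43 (adjusted p = 0.00668) and 3.08 ± 0.34 in the reduced comparison (adjusted p = 9.09e-08), and the call remained without any single array. Glul, the glutamine synthetase of the innermost pericentral cells, differed by 0.44 ± 0.27 (adjusted p = 0.427). Oat, ornithine aminotransferase of the same cells, differed by −0.44 ± 0.34 (adjusted p = 0.57) and was below controls in both groups, by −2.73 in ANIT and −2.29 in DMN (adjusted p = 3.8e-07 and 5.3e-06). The periportal enzymes Hal, of histidine breakdown, and Hsd17b13, of the lipid droplet, were lower by −0.93 ± 0.26 and −0.88 ± 0.21 (adjusted p = 0.0407 and 0.0193). Both calls were lost without ANIT 1, 2, 4 or 5 or DMN 4, and that of Hal also without DMN 1, 2 or 3 (adjusted p between 0.0504 and 0.17). The differences were −1.14 ± 0.27 and −1.09 ± 0.20 without the doubted arrays (adjusted p = 0.00488 and 0.000433).

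Of 30 genes of endoplasmic reticulum stress 3 were lower and 0 higher in both comparisons, with 0 to 3 lower without single arrays and 1 to 4 without an array of the reduced comparison. Ddit3, the transcription factor CHOP, was at 6.31, 6.76, 8.61, 6.78 and 7.52 on the ANIT arrays, against 7.81, 8.77, 8.75, 7.72 and 10.41 on the DMN arrays. ANIT 3 was in the DMN range, and the difference was −1.5 ± 0.37 (adjusted p = 0.0238), lost without ANIT 1, 2, 4 or 5 or DMN 5 (adjusted p between 0.0574 and 0.089), and −1.83 ± 0.38 in the reduced comparison (adjusted p = 0.00166). Sdf2l1, a chaperone partner, did not overlap between the groups and was lower by −0.70 ± 0.19 (adjusted p = 0.0377), lost without any single array other than ANIT 3 or DMN 4. Its difference was −0.70 ± 0.22 without the doubted arrays (adjusted p = 0.04), a call lost when leaving out also any other array but DMN 4. Casp1, the inflammatory caspase, did not overlap either and was lower by −0.85 ± 0.24 (adjusted p = 0.0497), lost without any single array other than ANIT 3 or DMN 1. Its difference was −0.97 ± 0.27 without the doubted arrays (adjusted p = 0.0222), a call lost when leaving out also ANIT 2 or 4 or DMN 3. Cryab, a small heat shock protein, was at 8.12, 8.54, 10.47, 8.02 and 8.87 on the ANIT arrays, against 10.83, 7.65, 11.21, 11.10 and 10.82 on the DMN arrays. Both doubted arrays lay on the side of the other group, and the difference was −1.52 ± 0.45 (adjusted p = 0.0578) and −2.60 ± 0.30 in the reduced comparison (adjusted p = 3.38e-07).

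In 3 lists limma called 0 members in either comparison. With all arrays 1 of 24 interferon genes, 2 of 16 clock genes and 1 of 16 genes of pancreatic acinar cells had an unadjusted p under 0.05. Limma also called 0 with all arrays among 28 genes of oxidative phosphorylation, 27 of fatty acid oxidation, 20 of glucose and glycogen metabolism and 18 of lymphocytes, which held 7, 8, 5 and 6 genes at an unadjusted p under 0.05. In the reduced comparison 1 oxidative phosphorylation gene was lower, 2 fatty acid oxidation genes were higher and 2 lower, and 3 genes of each of the other 2 lists were lower (1 to 3 without a further array). In the order named, these are 3.6%, 14.8%, 15.0% and 16.7% of the lists, against 7.13% of all genes.

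**Figure D5:**
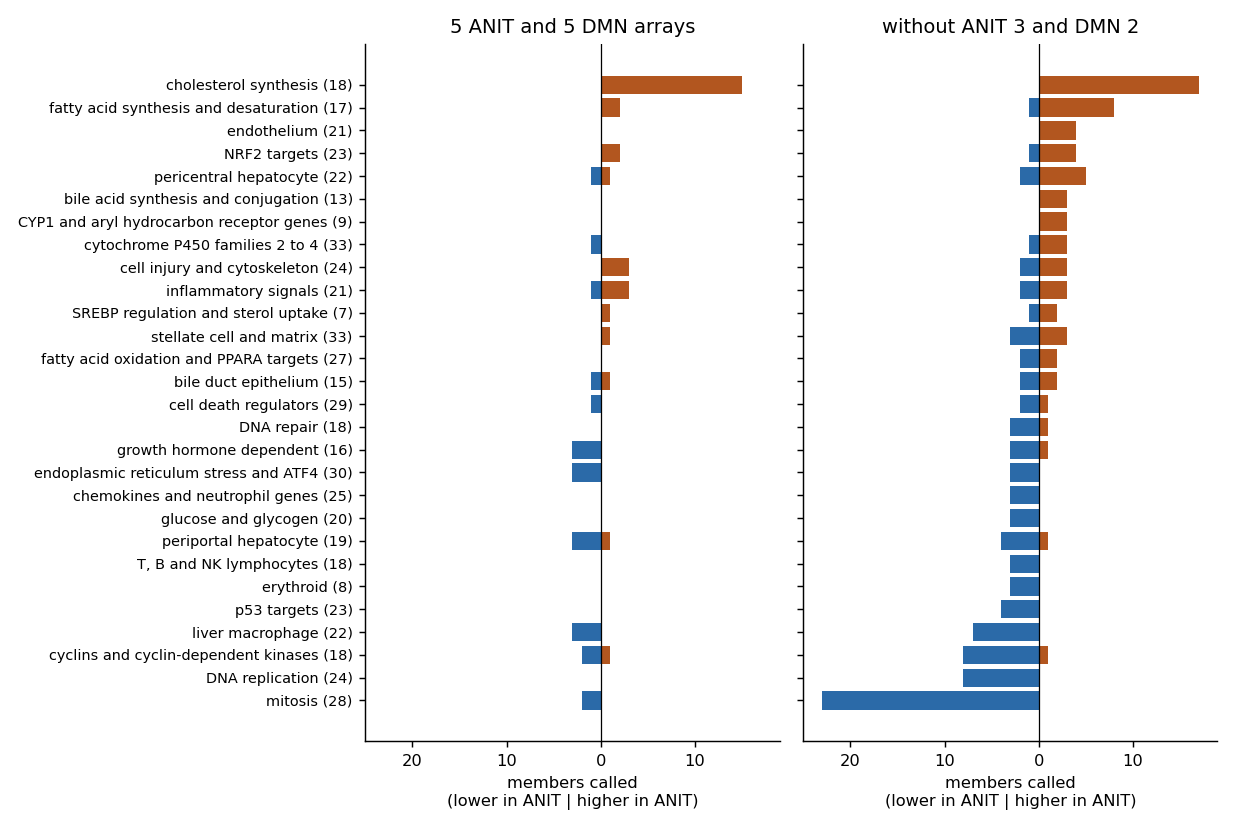
Members called at an adjusted p under 0.05 (x axis) in the gene lists with at least 3 calls in the reduced comparison (y axis, number measured in brackets), higher in ANIT to the right and lower to the left. With all arrays (left) 15 of 18 cholesterol synthesis genes are higher and 2 of 28 mitosis genes lower; without the arrays labelled ANIT 3 and DMN 2 (right) these are 17 and 23.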

How the data were processed

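Rat liver RNA of 39 animals was hybridized to Affymetrix arrays. The submitters' processing notes name RMA and affy, with no version. The values deposited by the authors are intensities of probe sets that were not on a log scale (5.4 to 23152.1), and log2 was taken here, whereas the plan had assumed values deposited on a log2 scale by the authors. Platform annotation gave 1 symbol to 20826 of 31099 probe sets, updated through a RefSeq table (GRCr8) for 20758, and the probe set with the highest mean stood for each of 14217 genes. The 436 with more than one symbol were not used.

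limma 3.58.1 in R 4.3.3 fitted each group mean over the 39 arrays together, so that all groups share the estimate of spread, and ANIT minus DMN was tested two-sided. On simulated data with 100 genes moved by 1 on the log2 scale and 100 by 2, 66 and 99 were recovered, and 9 genes that had not been moved were called. The simulated noise was independent and normal, with the same spread in every group and no array standing apart. Recovery in the real arrays may therefore differ. Background is the 95th percentile of 27 spike probe sets, 4.55. Arrays have no read depth, and their number limits the precision; labels call them biological replicates.

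The members and the 40 gene lists were chosen with earlier results of these data known; 779 of 894 list entries were measured and the rest not analysed here. Named genes are the 15 per direction with the largest called difference in each comparison, up to 6 members per list of smallest p with all arrays, and fixed genes of interest. Alternatives were leaving out arrays, other normalizations and filters, a replicate block, array weights and other fits.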

Additional observations from a re-analysis of the deposited data

Results flagged for a closer look

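In 64 of 276 sets of 5 ANIT or 5 DMN values, one value per gene or gene list and array, a single array lay far from the other 4 by Dixon's gap over range, which chance gives in about 1 in 20 sets. This was the array labelled ANIT 3 in 47 sets, DMN 2 in 8, DMN 5 in 5, DMN 3 in 2 and ANIT 5 in 2. The sets were not independent, since they share arrays, and the cause was not tested. Some of the genes were named from the reduced comparison, a choice that favours genes in which ANIT 3 or DMN 2 stands apart. The counts for these arrays therefore cannot be measured against 1 in 20.

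The array labelled ANIT 3 was the lowest of the ANIT arrays for sterol and fatty acid genes, with log2 intensities of Cyp51 at 11.01, Mvk at 8.33, Dhcr7 at 10.11, Acat2 at 7.59, Pmvk at 8.85, Idi1 at 9.11 and Sqle at 9.14. It was also the lowest for Acss2 at 8.22, Fads1 at 10.68, Acly at 9.33, Abcc3 at 7.15, Slc27a5 at 12.08, Hsd3b7 at 10.32 and Ccnd1 at 10.05. The same held for Gpx2 at 6.00, Cxadr at 4.52, Krt8 at 12.17, Krt18 at 12.51, Cdh1 at 11.23, Col3a1 at 10.29 and Slc13a3 at 6.92. It was the highest of the ANIT arrays for Pklr at 8.96, Ccnb2 at 10.35, Cdk1 at 10.41, Birc5 at 9.08, Aurka at 7.96, Kif20a at 9.69 and Top2a at 9.86. It was also the highest for Tyms at 7.99, Rfc4 at 8.86, Cdkn1a at 11.91, S100a9 at 10.89, Lyz2 at 12.79, Pf4 at 9.74 and Hbb at 13.70, and for Esm1 at 8.24, Apln at 8.70, Serpina6 at 10.16, Krt19 at 6.83 Hsd17b13 at 11.75 and Serpina3c at 13.24. Relative to the control mean, its mean list level was the lowest for cholesterol synthesis (−0.71) and basolateral efflux (0.09). It was the highest for cyclins and cyclin-dependent kinases (1.34), mitosis (1.51), p53 targets (0.86) and DNA repair (0.41).

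The array labelled DMN 2 was the highest of the DMN arrays for Mvd at 9.05, Idi1 at 10.59 and Stac3 at 9.79. It was the lowest for Cdkn1a at 10.30, Lcn2 at 8.0, Gpnmb at 9.34, Lyz2 at 11.61 and Cryab at 7.65. DMN 5 was the lowest of its group for Acat2 at 6.56, Fads1 at 7.95, Abcb11 at 10.56, Abcc2 at 9.42 and Cyp3a2 at 11.43. DMN 3 was the highest for Casp1 at 8.66 and for the mean level of interferon genes (1.76), and ANIT 5 for that of inflammatory signals (0.77). ANIT 5 was the lowest of its group for Cyp2e1 at 12.26.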

How the results depend on the processing

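The count of called genes depended on which arrays were used. From 359 (207 higher, 152 lower) it moved to 1014 (523 and 491) without ANIT 3 and DMN 2, to 1116 (580 and 536) also without Roziglitazone 2, and to 1769 (937 and 832) with array weights. Leaving out a single array gave 65 to 1064 genes, 43 to 603 higher and 22 to 481 lower when the fits that start from the reduced comparison are counted in. With an adjusted p under 0.01 there were 73. With only the ANIT and DMN arrays in the limma fit 0 genes were called (0 higher, 0 lower), with 1897 at an unadjusted p under 0.05, and 587 (298 and 289) without ANIT 3 and DMN 2. Chosen after seeing the data, leaving out ANIT 5 and DMN 3 gave 27 (23 and 4), and leaving out all 4 doubted arrays 497 (263 and 234). Quantile normalization, median centring, dropping the dimmest 30%, the mean of all probe sets and a moderated fit with trend and robust options gave 343 to 439.

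Same-numbered ANIT and DMN arrays deviated together at correlations of −0.0864 to 0.156, and other-numbered ones at −0.236 to 0.402. The labels do not say whether the number pairs rats. So few correlations, from deviations that share arrays, cannot decide it. With the replicate block in all arrays 311 genes were called (172 and 139), and with the block in the 10 ANIT and DMN arrays 0, with 1821 at an unadjusted p under 0.05.

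Of the 98 genes named in the text, 55 were called with all arrays, and 20 of these remained called without any single ANIT or DMN array. In the reduced comparison 79 were called, and 67 of these remained called when any further array was left out. None of the 359 genes called with all arrays changed sign under any of these alternatives, and 8 of the 1014 called in the reduced comparison did under at least 1. The cause of these changes was not tested.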

Other observations

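The mean level of 24 interferon response genes, relative to controls, was 1.49 on ANIT 5 and 1.76 on DMN 3, the highest of all 39 arrays, followed by 0.73 on control 2. The same ANIT and DMN arrays had the largest 3′ minus 5′ difference of GAPDH in their groups, 2.33 and 6.07, while control 4, at 5.64, had an interferon level of −0.15. Limma called 0 genes of that list between the compounds, with 1 at an unadjusted p under 0.05, and the cause of these levels was not tested.

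Of 9780 probe sets that the annotation gives no gene symbol, 16 were called between ANIT and DMN with all arrays and 88 in the reduced comparison.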
